A study of Mus musculus with 6 samples.

Results

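The primary granule genes of myeloid progenitors described here are Mpo, Elane, Prtn3, Ctsg, Prss57, Srgn, Cst7, Ms4a3, Plac8 and Nkg7. They are 10 of the 25239 genes in the deposited count table, taken by gene symbol. All 10 are in the table, and each passed the filter on low counts that left 14849 genes for testing. They were chosen for the size of their rise between the groups compared here. Their difference between the groups is therefore given as a description, without a test, and they passed the filter through the group in which they are high.

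The samples are 6 RNA-seq libraries made from E18.5 ovaries of the C57BL/6 strain, 3 labelled WT and 3 labelled Hnrnpl-null. Hnrnpl encodes an RNA-binding protein that regulates splicing. The titles of the Hnrnpl-null libraries carry the abbreviation CKO, and the name of the deposited table contains the gene name Stra8. The labels explain neither, and name no Cre line, no deleted exon and no cell in which Hnrnpl was removed. Per the labels' protocols, ovaries were taken apart with Liberase and DNase before libraries were made from total RNA. No sort is named, and nothing says which libraries came from separate animals, and the spread that p-values are measured against is that between these libraries, which may be technical. The labels call the cells oocytes, but markers of somatic cells were abundant. The stromal list of 5 genes, led by the collagen gene Col1a1, summed to between 3003 and 5046 CPM in a library, against 59.1 to 191 CPM for 8 oocyte markers, 7 of which were lower in Hnrnpl-null (edgeR, adjusted p below 0.05). The pregranulosa factor Foxl2 was at 25.6 ± 2.27 CPM (SD, n = 3) in WT.

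The libraries held 8949781 to 22401419 counts. Reads of Rn45s, a precursor of ribosomal RNA, made up 83.0% of WT replicate 1 and 86.1% of Hnrnpl-null replicate 3, against 18.6% to 36.0% of the other libraries. Hnrnpl-null replicate 3 kept 1757572 counts outside Rn45s and is the least precise library for the genes below. Hnrnpl itself was at 145 to 172 CPM in WT versus 166 to 213 CPM in Hnrnpl-null (edgeR adjusted p = 0.50), so it does not check the labels. CPM stands here for counts scaled to library sizes that TMM factors have corrected.

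Primary granules, also called azurophil granules, are the first granules that form as a myeloid progenitor becomes a promyelocyte. They hold a peroxidase and a set of serine proteases that kill microbes. These genes are transcribed strongly at that stage and are largely silent in the mature neutrophil, which keeps the stored proteins. Genes of later granules, such as Ltf and Camp, are switched on afterwards. In the fetus these cells arise in the liver and, near birth, in the bone marrow.

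The 10 genes together were scarce in WT ovary libraries and abundant in the Hnrnpl-null libraries. Summed, they reached 9.75, 8.71 and 7.86 CPM in the WT libraries, in the order of replicates 1 to 3 that is kept below, against 750, 557 and 640 CPM in the Hnrnpl-null ones. The groups were far apart, and the libraries within each group were close. Srgn alone made up 50.5% to 70.3% of the sum in WT, and Mpo made up 67.6% to 71.7% of it in Hnrnpl-null. In raw counts the 10 genes gave 74, 210 and 114 counts in the WT libraries and 17779, 14631 and 2048 in the Hnrnpl-null libraries. Each of the 10 had groups that did not overlap. Among all tested genes, 12.4% had groups that did not overlap with the higher values in Hnrnpl-null, and 2.67% were called higher by edgeR at an adjusted p below 0.05. Nothing is read from the count of 10, since the genes were picked from this contrast. Counts are of RNA from ovaries taken apart, with no sort named, so more cells of a type and more RNA per cell cannot be told apart.

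**Figure D1:**
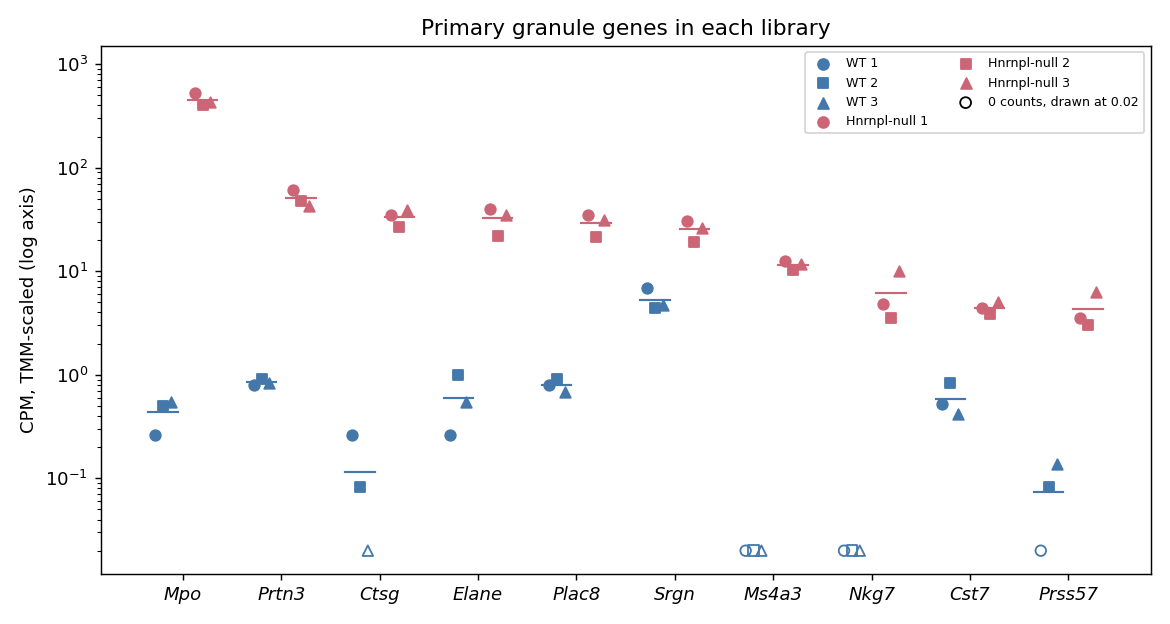
Level of each granule gene in CPM on a log axis, with 1 point per library (blue for WT, red for Hnrnpl-null, symbols for replicates 1 to 3) and a bar at the mean of 3 libraries; open symbols at the bottom mark a count of 0. All red points lie above all blue points of the same gene, from Mpo at 399 to 523 CPM down to Prss57 at 3.05 to 6.25 CPM in Hnrnpl-null.

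Mpo (chromosome 11, 87793784 to 87804412, mm10, plus strand) encodes myeloperoxidase, which makes hypochlorous acid from hydrogen peroxide and chloride. WT libraries held 0.263, 0.497 and 0.551 CPM of it, Hnrnpl-null libraries 523, 399 and 432 CPM. The WT values rest on 2, 12 and 8 counts and the Hnrnpl-null values on 12398, 10484 and 1384 counts. The lowest Hnrnpl-null library was 724 times the highest WT library. The ratio of group means was 1032, and 861 to 1187 when any 1 library was left out. Low counts in the table are mostly even, which is how 1 read pair looks when each mate adds 1 count, and the 22 WT counts are taken as 11 read pairs. Counting error alone then gives a pooled ratio of 959 with an exact 95% interval of 536 to 1921. No other member was as abundant in Hnrnpl-null.

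The serine proteases Elane, Prtn3 and Ctsg came next. Elane (chromosome 10, 79886312 to 79888216, plus strand) encodes neutrophil elastase. It was at 0.263, 0.995 and 0.551 CPM in WT versus 40.2, 22.0 and 35.0 CPM in Hnrnpl-null. Its group means had a ratio of 53.7, and 41.9 to 79.6 with any 1 library left out. Prtn3 (chromosome 10, 79879667 to 79883172, plus strand) encodes proteinase 3. It was at 0.790, 0.912 and 0.827 CPM in WT versus 60.9, 47.6 and 43.1 CPM in Hnrnpl-null, a ratio of 59.9. These WT values rest on 6, 22 and 12 counts and had an SD of 0.0624 CPM around a mean of 0.843 CPM (n = 3). With so few counts, their closeness is not a measure of precision. Ctsg (chromosome 14, 56099885 to 56102574, minus strand) encodes cathepsin G. It was at 0.263, 0.0829 and 0 CPM in WT versus 34.8, 26.8 and 38.7 CPM in Hnrnpl-null. Only 2 read pairs of Ctsg were counted over the WT libraries, so its ratio is imprecise, with a pooled value of 359 and an exact 95% counting interval of 99.2 to 2972.

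Prss57 (chromosome 10, 79781474 to 79788985, minus strand) encodes a further serine protease of neutrophil granules, also known as neutrophil serine protease 4. It was the least abundant of the proteases, at 0, 0.0829 and 0.138 CPM in WT versus 3.54, 3.05 and 6.25 CPM in Hnrnpl-null. With 2 read pairs in WT, the pooled ratio was 40.0 with an exact 95% counting interval of 10.8 to 335. Its exons overlap those of Fstl3, and the strand setting of the counting is not given in the sources used here, so its reads are not certain to come from Prss57.

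The upstream sequences of Mpo, Elane, Prtn3 and Ctsg are shown because these are the 4 members with the highest CPM in Hnrnpl-null. Each run is the 250 bases before the start of the gene, read 5′ to 3′ on the gene's strand from RefSeq sequence of GRCm38.p6, and each start matched the first exon base of the deposited table. Capitals mark GAGGAA or its complement (a core of PU.1 sites), CAACTG, that run with T as the first letter, with G as the fifth, with both changes, or their complements (cores of MYB sites), and TATAAA or, with G as the last letter, TATAAG on the gene's strand. The motif letters were chosen after the sequences had been seen.
Mpo, chr11:87793534-87793783, plus strand: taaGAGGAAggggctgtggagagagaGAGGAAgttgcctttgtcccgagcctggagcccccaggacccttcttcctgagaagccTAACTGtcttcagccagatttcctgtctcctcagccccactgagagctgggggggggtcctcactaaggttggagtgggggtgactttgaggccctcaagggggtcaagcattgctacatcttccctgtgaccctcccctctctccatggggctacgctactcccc
Elane, chr10:79886062-79886311, plus strand: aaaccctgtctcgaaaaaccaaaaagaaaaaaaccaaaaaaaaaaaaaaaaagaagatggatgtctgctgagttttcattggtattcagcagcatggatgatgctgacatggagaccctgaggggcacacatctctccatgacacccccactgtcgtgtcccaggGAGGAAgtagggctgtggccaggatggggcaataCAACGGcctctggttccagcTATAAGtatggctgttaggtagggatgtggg
Prtn3, chr10:79879417-79879666, plus strand: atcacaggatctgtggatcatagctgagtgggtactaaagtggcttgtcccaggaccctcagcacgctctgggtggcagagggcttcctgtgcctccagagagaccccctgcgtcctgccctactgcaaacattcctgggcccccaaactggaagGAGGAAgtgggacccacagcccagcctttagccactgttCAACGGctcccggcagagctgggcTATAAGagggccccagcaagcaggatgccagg
Ctsg, chr14:56102575-56102824, minus strand: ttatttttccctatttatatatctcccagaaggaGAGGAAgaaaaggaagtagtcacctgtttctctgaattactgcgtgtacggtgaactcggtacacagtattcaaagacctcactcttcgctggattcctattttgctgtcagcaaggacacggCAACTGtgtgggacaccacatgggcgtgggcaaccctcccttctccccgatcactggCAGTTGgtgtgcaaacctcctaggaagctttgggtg

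Elane and Prtn3, which lie next to each other, hold the same 3 motifs in the same order. GAGGAA begins 85 bases before the Elane start and 95 before the Prtn3 start, CAACGG begins 51 and 56 bases before it, and TATAAG 31 and 32 bases before it. Mpo and Ctsg also hold a GAGGAA and a MYB core but neither TATA form. Of the 9 members with a sequence in the RefSeq table, 5 held GAGGAA, 6 held a MYB core and 4 held both. Of all 32851 windows of the same length, 23.3% held GAGGAA, 23.7% held a MYB core and 5.42% held both. The 4 members with both are Mpo, Elane, Prtn3 and Ctsg, whose sequences are shown above. As the motif letters were chosen after the sequences had been seen, nothing is read from the difference between members and all windows. The C/EBP pattern TTNNGNAA was in 3 members and in 36.8% of all windows, searched on both strands. TGTGGT, or that run with C as the third letter, the core of RUNX sites, was in 4 members and in 18.6% of all windows, and a TATA form was in 3 members and in 11.2%. These are matches of letters and not sites at which binding was measured.

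Srgn and Cst7 encode proteins that pack and restrain granule proteases. Srgn (chromosome 10, 62493833 to 62527445, minus strand) encodes serglycin, the proteoglycan core that holds basic proteins in the granules of myeloid cells, mast cells and cytotoxic lymphocytes. It was the only member with a clear level in WT, at 6.85, 4.39 and 4.69 CPM versus 30.9, 19.0 and 26.2 CPM in Hnrnpl-null. The ratio of group means was 4.78, the smallest of the 10. Cst7 (chromosome 2, 150570415 to 150578944, plus strand) encodes cystatin F, which inhibits lysosomal cysteine cathepsins, among them the one that activates the granule serine proteases. It was at 0.527, 0.829 and 0.413 CPM in WT versus 4.38, 3.88 and 5.0 CPM in Hnrnpl-null, a ratio of 7.50. Srgn and Cst7 were the only members with ratios below 10.

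The remaining 3 members are not enzymes. Ms4a3 (chromosome 19, 11629499 to 11640851, minus strand) encodes a membrane protein that in mice marks granulocyte-monocyte progenitors. WT libraries held no count of it, and Hnrnpl-null libraries were at 12.5, 10.4 and 11.9 CPM, on 296, 272 and 38 counts. Its mean was 89.1 times the limit set for a WT count of 0, taken as 3 read pairs, or 6 counts, over the 3 libraries. The exact 95% counting interval of its pooled ratio began lower, at 71.0. Plac8 (chromosome 5, 100553726 to 100572205, minus strand) encodes a small cysteine-rich protein of myeloid and other cells. It was at 0.790, 0.912 and 0.689 CPM in WT versus 34.8, 21.6 and 31.2 CPM in Hnrnpl-null, a ratio of 36.7. Nkg7 (chromosome 7, 43437138 to 43438246, plus strand) encodes a granule membrane protein best known from natural killer and cytotoxic T cells. It was not counted in WT and reached 4.81, 3.50 and 10 CPM in Hnrnpl-null, at least 47.0-fold higher by the same limit, with an interval of the pooled ratio that began at 27.6. Its highest library, Hnrnpl-null replicate 3, rests on 32 counts. The ratios of the 4 members with the fewest WT counts depended on single libraries. Without WT replicate 2, the deepest WT library for these genes, the ratio to the limit was 42.6 for Ms4a3 and 22.5 for Nkg7. The ratio of group means of Ctsg was 290, and 807 without WT replicate 1. That of Prss57 was 58.2, with 38.8 without WT replicate 1 and 103 without WT replicate 3. Without the 2 libraries richest in Rn45s the ratio to the limit was 26.7 for Nkg7, and the ratio of group means was 29.8 for Prss57 and 743 for Ctsg.

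The order of the members by level was much the same in the 3 Hnrnpl-null libraries. Levels between genes are compared as CPM per kilobase of exon. Mpo was at 177 ± 25.1 CPM per kb (SD, n = 3), above 99.5% of all tested genes, and took 48.3%, 50.6% and 45.8% of the summed CPM per kb of the 10 genes in Hnrnpl-null replicates 1 to 3. Prtn3 followed at 52.1 ± 9.51 CPM per kb. Elane, Ctsg and Plac8, at 35.2 ± 10.2, 33.5 ± 6.10 and 30.5 ± 7.12 CPM per kb, differed by less than their spread and changed places between libraries. Srgn was at 14.8 ± 3.47 CPM per kb and Ms4a3 at 11.5 ± 1.08, neighbours within their spread, though Srgn was the higher in every Hnrnpl-null library. Nkg7 was at 7.51 ± 4.23 and Cst7 at 4.49 ± 0.567, also within their spread, though Nkg7 was the higher in each of these libraries. Prss57 was last in every Hnrnpl-null library at 1.59 ± 0.640 CPM per kb. The make-up in WT was another one. Srgn took 38.2% to 58.5% of the summed CPM per kb there and Mpo 1.52% to 3.88%, while Prtn3 took 11.97% to 15.28% in WT and 12% to 15.8% in Hnrnpl-null. The WT shares of members other than Srgn rest on few counts.

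**Figure D2:**
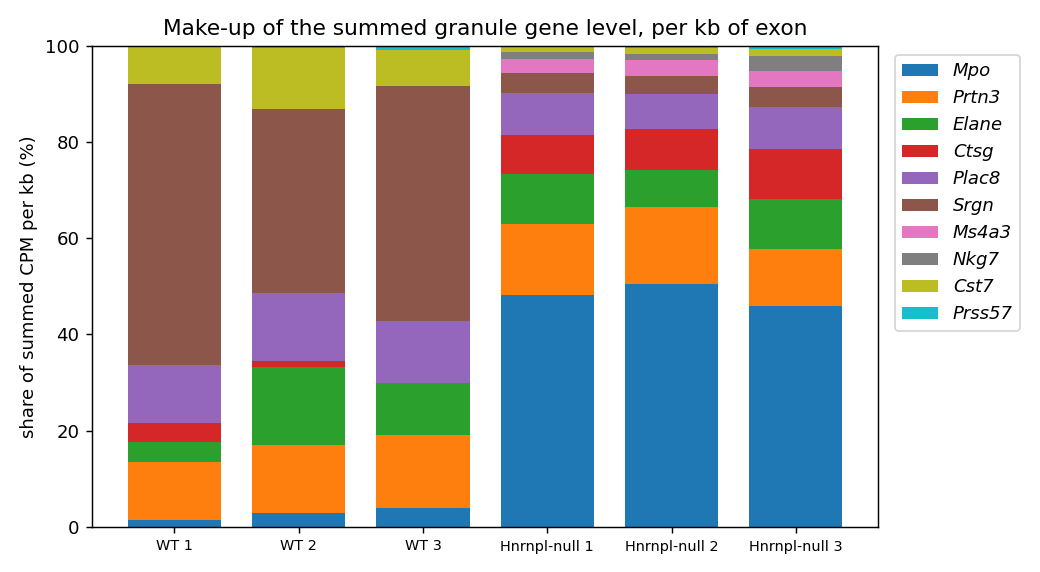
Share of each granule gene in the summed CPM per kb of exon of the 10 genes (in percent), stacked for each of the 6 libraries. Srgn is the largest share in each WT library (38.2% to 58.5%) and Mpo is the largest in each Hnrnpl-null library (45.8% to 50.6%).

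Levels of the members within the Hnrnpl-null group are given as a description. The share of all tested genes with the same order of libraries was not taken, so nothing is read from the counts of members. Each of the 10 was higher in replicate 1 than in replicate 2, by 1.13 times for Cst7 up to 1.83 times for Elane. The highest level was in replicate 1 for 6 members and in replicate 3 for 4, and the lowest was in replicate 2 for 9. Among those highest in replicate 3, Cst7, Prss57 and Nkg7 rest there on 16, 20 and 32 counts. Ms4a3 varied least, by 1.205 times between its lowest and highest library, and Nkg7 most, by 2.85 times. The summed level of the pan-leukocyte list, led by Ptprc and Coro1a, was 199 to 208 CPM in the same 3 libraries.

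Other genes of the granule pathway and markers of cell types, some of them not blood cells, are first counted together. Over 26 lists of related genes and cell type markers, 168 genes were tested, of which 38 were higher and 8 lower (edgeR, adjusted p below 0.05). Over all genes tested, 4.46% were called, 2.67% higher and 1.79% lower, and the log2 fold change had a median of -0.01. With Hnrnpl-null replicate 2 left out, 24 of the list genes were higher and 4 lower.

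Among inhibitors of granule proteases, 1 of 7 tested members was higher. That was Serpinb1a, the cytosolic inhibitor of elastase, proteinase 3 and cathepsin G, which rose from 11.3 ± 2.45 to 29.9 ± 3.86 CPM (log2 fold change 1.43 ± 0.19 SE, edgeR adjusted p = 5.6e-04) and was higher in each of the 3 Hnrnpl-null libraries than in any WT library. At an unadjusted p below 0.05 in edgeR, 2 inhibitors were higher and 1, Serpinb6a, was lower. Serpinb6a was at 109 ± 5.18 CPM in WT versus 87.5 ± 10.4 CPM in Hnrnpl-null (edgeR adjusted p = 0.14). It was called lower by limma-voom but not by DESeq2. Among lysosomal cysteine and aspartic proteases, 0 of 11 were called by edgeR, at a median log2 fold change of 0.18. At an unadjusted p below 0.05 there were 3 (Ctsb, Ctsc and Ctss), and DESeq2 and limma-voom each called Ctsb, the cathepsin B gene, higher. Ctsc, which encodes the cathepsin that activates the granule serine proteases, was at 18.0 ± 2.06 CPM in WT versus 23.1 ± 5.19 CPM in Hnrnpl-null (edgeR adjusted p = 0.27). Of the other cystatins and stefins, 0 of 7 passed in edgeR, DESeq2 or limma-voom, while 1 was lower at an unadjusted p below 0.05 in edgeR. Of 13 tested lysosomal hydrolases and membrane proteins, 3 were higher. Among these were the glycosidases Gusb, from 21.4 ± 2.52 to 36.1 ± 2.75 CPM, and Man2b1, from 31.8 ± 4.73 to 51.1 ± 6.07 CPM. The Man2b1 call was lost in 4 of the 6 fits that left out 1 library, with edgeR adjusted p up to 0.088. Lyz2, the lysozyme of macrophages and neutrophils, averaged 9.82 CPM in WT versus 9.86 CPM in Hnrnpl-null, without a call by edgeR (adjusted p = 0.87). The near-equal means hide a spread between libraries. WT libraries held 10.4, 10.8 and 8.27 CPM of Lyz2, Hnrnpl-null libraries 13.4, 13.0 and 3.12 CPM. The low value came from Hnrnpl-null replicate 3, the least precise library, and the other Hnrnpl-null libraries were above every WT library.

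The phagocyte NADPH oxidase supplies the superoxide from which the substrate of myeloperoxidase is made. Of its 7 tested genes, 3 were higher and 4 were not called. Rac2, its GTPase in blood cells, rose from 3.38 ± 1.11 to 21.1 ± 2.87 CPM (log2 fold change 2.57 ± 0.25, edgeR adjusted p = 3.6e-05). The cytosolic subunit Ncf1 rose too, from 2.58 ± 0.924 to 8.14 ± 0.950 CPM (edgeR adjusted p = 0.011). Its call was lost without Hnrnpl-null replicate 1 or 2 (edgeR adjusted p up to 0.064). The membrane subunits were not called, with Cyba at 19.7 CPM in both groups and Cybb at 2.36 ± 0.121 CPM in WT versus 3.97 ± 3.47 CPM in Hnrnpl-null. Cybb had 5.48, 6.43 and 0 CPM in Hnrnpl-null. The eosinophil peroxidase gene Epx, at 0.539 and 1.22 CPM, was not called, and the neighbouring lactoperoxidase gene Lpo had too few counts to test, 16 in WT and 20 in Hnrnpl-null.

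Of 14 tested genes in a list of myeloid transcription factors, 2 were higher and 12 were not called. At an unadjusted p below 0.05 in edgeR 7 were higher, and the median log2 fold change was 0.67. Myb, which blood progenitors need, rose from 0.585 ± 0.190 to 19.3 ± 3.01 CPM (log2 fold change 5.13 ± 0.31, edgeR adjusted p = 4.1e-07). Spi1, which encodes PU.1, rose from 1.54 ± 0.508 to 6.64 ± 1.74 CPM (edgeR adjusted p = 0.0087), but missed the threshold when replicate 2 of either group was left out (edgeR adjusted p up to 0.074). Cebpa was at 8.74 ± 1.33 CPM in WT versus 14.6 ± 2.90 CPM in Hnrnpl-null and missed the threshold (edgeR adjusted p = 0.061). Cebpb, at 18.9 and 22.9 CPM, did not pass. Gfi1, at 0.423 ± 0.370 and 2.51 ± 0.528 CPM, and Irf8, at 2.18 ± 0.565 and 5.22 ± 1.85 CPM, were not called (edgeR adjusted p = 0.084 and 0.068). Cebpe, a factor of later neutrophil stages, was at 0.622 CPM in WT versus 2.95, 2.13 and 0 CPM in Hnrnpl-null. Runx1 was at 61.9 ± 2.55 and 66.9 ± 1.97 CPM and did not pass. DESeq2 and limma-voom each called 5 of these factors higher, Cebpa, Irf8, Myb and Spi1 with both tools.

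Genes of the neutrophil stages after the promyelocyte were not higher. Of 9 tested genes of later granules, 0 passed as higher in edgeR, DESeq2 or limma-voom. At an unadjusted p below 0.05 edgeR had 1 higher, Cebpe, and 4 lower, and edgeR, DESeq2 and limma-voom called 1, 2 and 4 lower. Cebpe was called higher only by edgeR without the 2 libraries richest in Rn45s. Their summed level was 21.1 to 30.02 CPM in WT versus 7.23 to 16.8 CPM in Hnrnpl-null, so the groups did not overlap and Hnrnpl-null was lower. Over these 9 the log2 fold change had a median of -1.28. Ltf, the lactoferrin of secondary granules, was at 2.06 ± 0.680 CPM in WT versus 2.11, 0 and 0 CPM in Hnrnpl-null, which did not pass. Camp, the cathelicidin of secondary granules, had 24 counts in WT and 4 in Hnrnpl-null and was not tested. Mmp8, a collagenase of neutrophil granules, fell from 3.07 ± 0.978 to 0.619 ± 0.311 CPM (edgeR adjusted p = 0.042), a call that held with Hnrnpl-null replicate 3 left out and with no other library left out (edgeR adjusted p up to 0.24). Later granule genes thus had counts in the WT libraries, in which Ms4a3 had no counts and Mpo 11 read pairs.

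**Figure D3:**
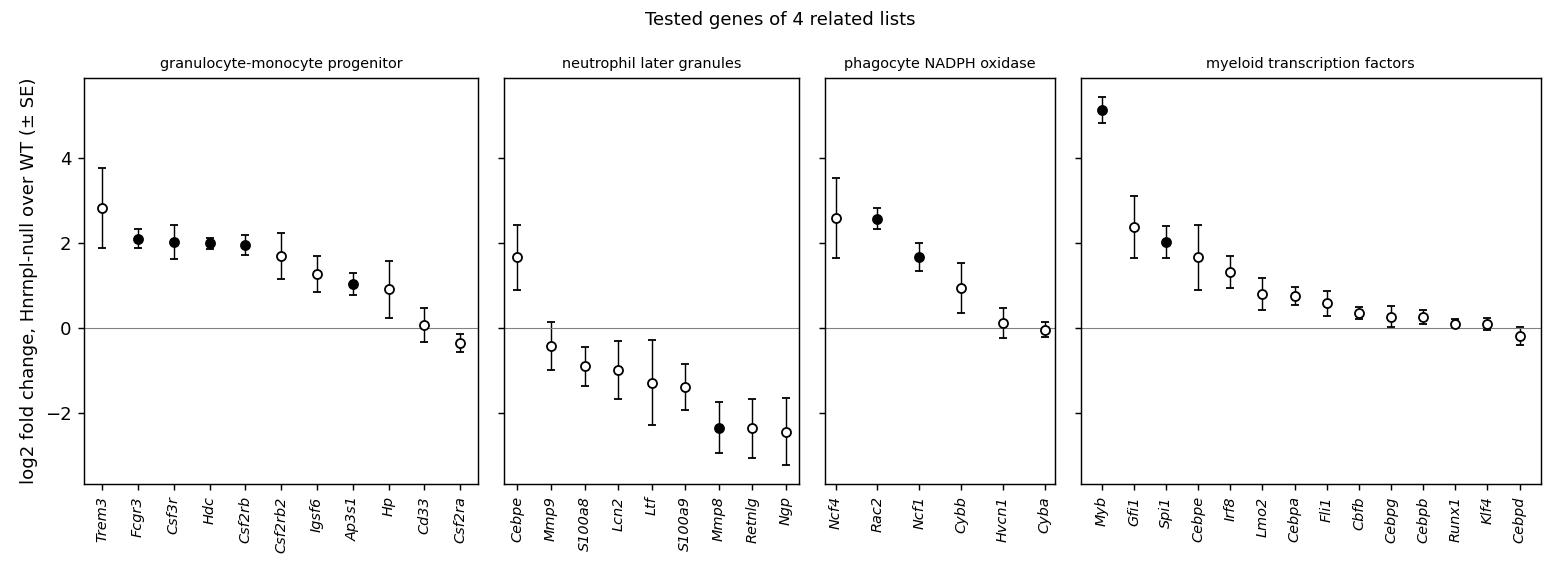
Log2 fold change of Hnrnpl-null over WT (± SE, edgeR) for tested genes of 4 lists, with filled points for an adjusted p below 0.05. Filled points lie above 0 in the progenitor, oxidase and transcription factor lists (5, 2 and 2 genes shown), and the only filled point of the later granule list, Mmp8, lies below 0.

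Markers of some other blood cells were higher in Hnrnpl-null too, while those of others were not. Srgn, Plac8, Nkg7 and Cst7 are not particular to neutrophil precursors, and the part of other blood cells in their values was not tested. Of 12 tested markers of granulocyte-monocyte progenitors, 6 were higher, 6 were not called and none was lower by edgeR. Their list had a summed level of 66.1 to 70.5 CPM in WT versus 192 to 215 CPM in Hnrnpl-null. Hdc, an enzyme of histamine synthesis that the mast cell list holds too, rose from 28.8 ± 1.66 to 116 ± 15.2 CPM. It made up most of the rise of that sum, which is thus not particular to progenitors. Fcgr3, an Fc receptor, rose from 3.23 ± 0.0731 to 13.99 ± 0.350 CPM, and Csf2rb, a cytokine receptor subunit, from 3.77 ± 0.530 to 14.9 ± 1.47 CPM. Outside the rule for named genes, Csf3r and Ap3s1 are named after their values were seen. Ap3s1, an adaptor subunit, rose from 6.31 ± 1.70 to 13.5 ± 3.05 CPM and lost its call without any 1 of 4 libraries (edgeR adjusted p up to 0.16). Csf3r, the receptor for granulocyte colony-stimulating factor, rose from 1.66 ± 0.793 to 7.40 ± 2.27 CPM and lost its call without WT replicate 3 (edgeR adjusted p = 0.057). The promyelocyte genes Fcnb and Clec12a did not pass the filter of edgeR, though DESeq2 called Clec12a higher, with 0 and 6 counts in WT and 8 and 158 in Hnrnpl-null.

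Mast cell markers were present in both groups and higher in Hnrnpl-null. All 8 tested members of a list of 12 were called higher, with a summed level of 179 to 186 CPM in WT versus 846 to 974 CPM in Hnrnpl-null, while Mcpt1 was at 0 in all 6 libraries. Cma1, a chymase, rose from 40.1 ± 4.64 to 281 ± 18.2 CPM, and Cpa3, a carboxypeptidase, from 23.9 ± 1.001 to 132 ± 3.34 CPM. The ratio of group means was 6.99 for Cma1, 5.53 for Cpa3 and 11.6 for Mcpt4, against 53.7 for Elane and 4.78 for Srgn. Of 9 tested pan-leukocyte genes 7 were higher, with a sum of 45.2 to 55.6 CPM in WT versus 199 to 208 CPM in Hnrnpl-null. Coro1a, a regulator of actin in leukocytes, rose from 3.99 ± 0.498 to 32.5 ± 7.75 CPM. Of 13 tested monocyte and macrophage genes 2 were higher, F13a1, from 6.13 ± 2.07 to 20.6 ± 1.13 CPM, and Cx3cr1, from 6.71 ± 1.48 to 15.5 ± 3.58 CPM. The list summed to 95.7 to 106 CPM in WT versus 130 to 167 CPM in Hnrnpl-null, and Cx3cr1 missed the threshold when replicate 2 of either group was left out (edgeR adjusted p up to 0.082).

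Eosinophil and basophil genes were uneven between libraries. Prg2, the major basic protein of eosinophil granules, had 0 counts in WT and 140, 10 and 0 counts in Hnrnpl-null replicates 1 to 3, and the related Prg3 had 0 in WT and 34, 4 and 0. Both were thus high in a single library and did not pass the filter of edgeR. Prss34, a protease of basophils and mast cells, rose from 5.33 ± 2.05 to 19.2 ± 1.57 CPM (edgeR adjusted p = 9.5e-04) and was the only gene called by edgeR of the 3 it tested in this list, while DESeq2 also called Mcpt8 and Siglecf higher. The list summed to 4.22 to 9.29 CPM in WT versus 21.6 to 32.0 CPM in Hnrnpl-null. Ear1, Ear2, Ear6 and Ccr3 were at 0 in all 6 libraries.

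Markers of cytotoxic lymphocytes, in which Nkg7, Cst7 and Srgn are also known, were few in counts and mixed. The T and natural killer cell list summed to 5.80 to 6.34 CPM in WT versus 3.54 to 7.50 CPM in Hnrnpl-null, and none of its 4 tested genes passed in edgeR, DESeq2 or limma-voom. That was 0 also at an unadjusted p below 0.05 in edgeR. The tested genes were Lck, with 64 counts in WT and 60 in Hnrnpl-null, Cd4, with 71 and 54, Cd247, with 66 and 26, and Il2rb, with 24 and 42. Its defining genes Cd3e and Cd3g had 2 counts each in WT and 0 in Hnrnpl-null, Ncr1 had 0 and 4, and Klrd1 was at 0 in all 6 libraries. Of the granzymes, Gzmd, Gzmf, Gzmg, Gzmk and Gzmn were at 0 in all libraries, and Gzmb had 2 counts in WT and 12 in Hnrnpl-null, while Gzmm, the 1 tested member, had 126 and 120 counts and was not called. The other Ms4a genes, the family of Ms4a3, had 0 of 4 tested members called by edgeR (1 at an unadjusted p below 0.05), and Ms4a2, a mast cell receptor subunit called higher by DESeq2, had 2 counts in WT and 72 in Hnrnpl-null. Of the B cell list, 0 of 4 tested genes were called by edgeR, though Cd79b was higher by DESeq2 and at an unadjusted p below 0.05, at 3.16 to 4.56 CPM in sum in WT and 3.35 to 13.1 CPM in Hnrnpl-null. The erythroid and megakaryocyte lists also had 0 calls by edgeR, among 7 and 3 tested genes, and 2 each at an unadjusted p below 0.05. DESeq2 and limma-voom called the erythroid genes Alas2 and Slc4a1 higher and no megakaryocyte gene. The erythroid list summed to 29.1 to 43.0 CPM in WT versus 38.1 to 80.2 CPM in Hnrnpl-null, and the megakaryocyte list to 19.5 to 29.4 and 23.0 to 33.4 CPM, so the groups of both overlapped. Markers of blood stem and multipotent progenitors had 0 of 5 tested genes called by edgeR (2 at an unadjusted p below 0.05, 2 by DESeq2 and 2 by limma-voom), and the groups overlapped at 51.0 to 53.4 and 50 to 71.1 CPM.

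Among markers of the organs that make blood in the fetus, Alb, Fgb, Afp, Bglap and Bglap2 were close to absent. Trf and Runx2 were called higher by edgeR. Of the hepatocyte list of 10, Alb and Fgb were at 0 in all 6 libraries, and Afp had 2 counts in WT and 0 in Hnrnpl-null. Its sum of 11.3 to 13.3 CPM in WT versus 20.7 to 29.2 CPM in Hnrnpl-null came mainly from Trf, the transferrin gene, which rose from 10.4 ± 1.06 to 21.9 ± 4.15 CPM but lost its call without Hnrnpl-null replicate 2 (edgeR adjusted p = 0.054). Of the osteoblast list of 8, Bglap and Bglap2 had 0 and 4 counts in WT and 6 and 0 in Hnrnpl-null, and the list summed to 4.10 to 6.32 and 5.62 to 9.36 CPM. Its only call was Runx2, from 1.06 ± 0.246 to 5.89 ± 1.33 CPM.

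**Figure D4:**
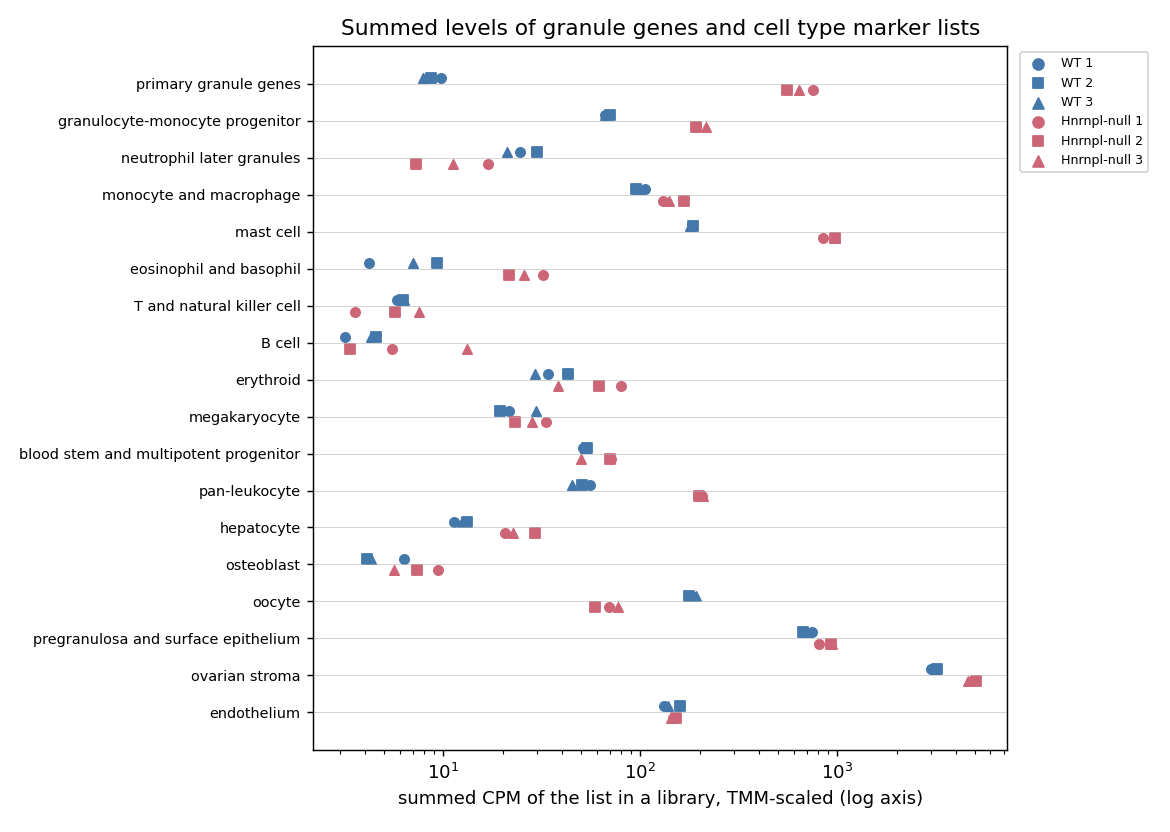
Summed level of the 10 granule genes and of 17 cell type marker lists in each library, in CPM on a log axis (blue for WT, red for Hnrnpl-null, symbols for replicates 1 to 3). The granule genes, chosen for their gap, lie at 7.86 to 9.75 and 557 to 750 CPM, the later neutrophil granule and oocyte lists lie lower in Hnrnpl-null, and the T and natural killer cell list overlaps between groups.

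The 3 nearest genes on either side of each member gave 53 distinct neighbours, gene models left out. Of these 30 were tested by edgeR, 2 were called higher (6.67%, against 2.67% of all tested genes) and 28 were not called, with 6 at an unadjusted p below 0.05. DESeq2 called 6 higher, among them 3 that edgeR did not test, Mcpt8, Ms4a2 and Siglecf. Ms4a2, next to Ms4a3, had 2 counts in WT and 72 in Hnrnpl-null, and Siglecf, a lectin gene of eosinophils near Nkg7, had 4 and 80. Mcpt4, a mast cell chymase that lies near Ctsg in a cluster of granule proteases, rose from 5.29 ± 0.829 to 61.4 ± 19.4 CPM (edgeR adjusted p = 1.4e-06). In the same cluster Mcpt8, a protease of basophils, had 2 counts in WT and 44 in Hnrnpl-null, and Gzme, Gzmd and Gzmg had 2 counts or fewer in all 6 libraries together. Ddx21, an RNA helicase gene 52.8 kb from Srgn, rose from 31.03 ± 2.196 to 45.0 ± 1.85 CPM (edgeR adjusted p = 0.025). With any library but Hnrnpl-null replicate 3 left out, Ddx21 missed the threshold (edgeR adjusted p from 0.059 up to 0.10). Vps26a and Kifbp, the nearest neighbours of Srgn on either side, were not called.

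The genes around Prss57, Prtn3 and Elane on chromosome 10 are given as a description, since these members were chosen for their rise. Within 110 kb of the Elane start, 17 genes were tested, 3 of them members. Of the other 14, 0 were called by edgeR or DESeq2 and 1 by limma-voom, with 1 at an unadjusted p below 0.05 in edgeR. Their log2 fold changes ran from -1.10 to 0.87. Over all tested genes edgeR called 4.46%, so 0 of 14 is near that share and nothing is read from it. Plppr3, whose start lies 11.7 kb before that of Elane, was at 33.3 ± 4.90 CPM in WT versus 27.5 ± 12.05 CPM in Hnrnpl-null. Med16, a Mediator subunit gene 22.6 kb after it, was at 28.6 ± 5.84 and 35.1 ± 3.003 CPM. Cfd, which encodes the serine protease adipsin and lies directly after Elane, had 14 counts in WT and 4 in Hnrnpl-null and was not tested. Ptbp1, at 174 ± 3.34 and 195 ± 8.75 CPM, was not called.

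**Figure D5:**
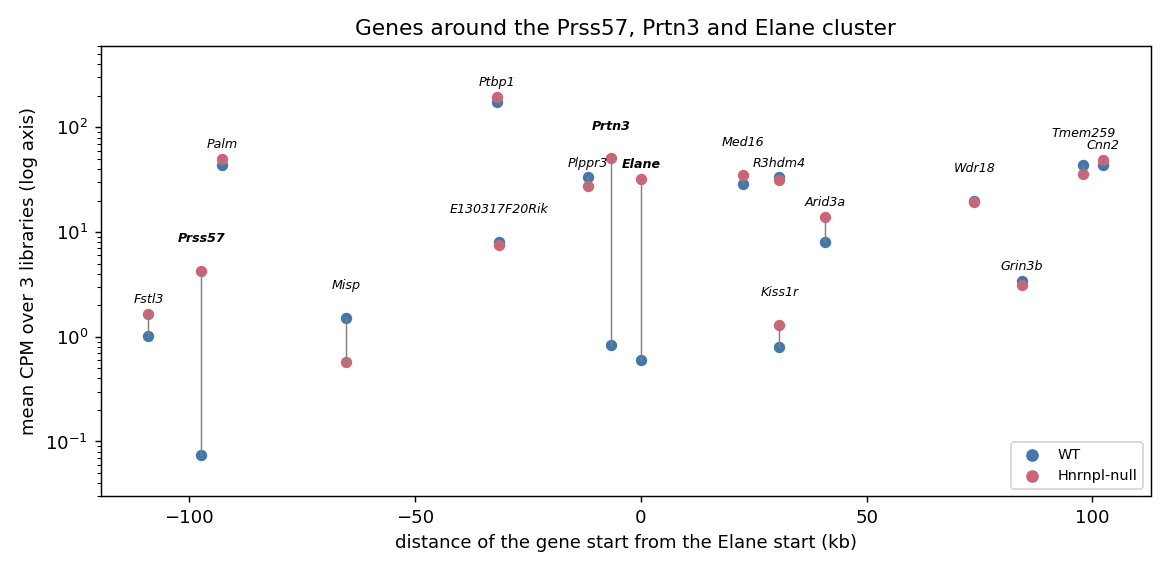
Mean CPM over 3 libraries (log axis) in WT (blue) and Hnrnpl-null (red) for the 17 tested genes within 110 kb of the Elane start, against the distance of each gene's start from that of Elane in kb; a grey line joins the groups of a gene. Prss57, Prtn3 and Elane, in bold and chosen for their rise, have long lines. The other 14 genes have shorter ones, with log2 fold changes from -1.10 to 0.87.

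The 8 genes outside the 10 whose profile over the 6 libraries lay nearest to the mean profile of the members are given as a description, since that profile is the rise by which the members were chosen. Nearness was the root mean square distance of log2(CPM + 0.5) after each gene's mean was taken off, among 10343 genes with at least 5 CPM in the higher group. In order, they were Myb, Atp8b4, Mcpt4, Spn, Coro1a, Emb, Cma1 and Arhgdib, at distances from 0.294 to 0.930. Members lay at 0.0855 for Plac8 and 0.111 for Ms4a3, at 1.16 for Cst7 and 1.19 for Srgn, whose rises were smaller than the mean profile, and at 2.22 for Mpo, whose rise was larger. Cst7, Srgn and Mpo thus lay further off than the 8 named genes. Atp8b4, a phospholipid-transporting ATPase, was at 0.790, 0.995 and 0.276 CPM in WT versus 25.3, 14.3 and 10 CPM in Hnrnpl-null. Spn, which encodes the leukocyte sialoglycoprotein CD43, was at 1.32, 2.07 and 2.21 CPM in WT versus 19.7, 17.8 and 21.2 CPM in Hnrnpl-null.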

How the data were processed

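The deposited file holds raw counts per gene with exon coordinates and exonic length, in the layout of featureCounts per the file headers. The submitters' processing notes name STAR 2.7.11a, HISAT2 2.2.1 and featureCounts 2.0.6 and the build mm10, without saying what each did. No annotation, strand setting or rule for multi-mapping reads is given in the sources used here. Even numbers made up 93.4% to 98.4% of the counts from 1 to 20 in a library.

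The 6 libraries were fitted in edgeR 4.0.16 under R 4.3.3 with filterByExpr, TMM, glmQLFit and glmQLFTest on genotype alone. Tests were two-sided, Benjamini-Hochberg adjusted over 14849 genes, with a threshold of 0.05. An SE is the log2 fold change over the root of F. Ratio intervals are exact conditional binomial on read pairs and cover counting error only, as no molecular identifiers are named. On simulated counts the fit missed some of the changed genes and made more false calls than the threshold allows. Alternatives were DESeq2 1.42.0, limma-voom in limma 3.58.1, other scalings and filters, halved counts, a replicate block and left-out libraries. Within groups, every pair of replicates was further apart than sampling noise (chi-square over its degrees of freedom at least 5.21 on halved counts).

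The members and the gene lists were chosen with earlier results of these data known. Of 266 list genes, 264 were found by symbol. Genes named are the members, up to 4 called genes of a list with the smallest p, the first 2 of a list, called neighbours and the 8 nearest profiles; any other was named after its values were seen. Postnatal day 1 ovaries, which the series mentions, are not analysed here. Some list genes that entered the counts are not reported here by name or drawn.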

Additional observations from a re-analysis of the deposited data

How the results depend on the processing

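The median ratio of the 10 granule genes was 55.9. It was 41.9 to 56.5 under other scalings, filters and halved counts, 40.5 to 62.0 with 1 library left out and 37.9 without the 2 libraries richest in Rn45s. The share of Mpo in the summed CPM per kb was 47.1% to 49.4% with 1 Hnrnpl-null library left out. The count of genes called, 663 in all, was 4 with library totals alone, 1104 with a filter of any count, 1071 with DESeq2, 1273 with limma-voom, 236 at an adjusted p below 0.01 and 249 to 853 with 1 library left out. With library totals alone the share called higher was 75%, against 59.9%, and 0 list genes and 0 neighbours were called; the cause was not tested. The 46 called list genes were 28 to 56 with 1 library left out. The 2 called neighbours were 5 with a filter of any count, 4 without the 2 libraries richest in Rn45s, 6 with DESeq2, 4 with limma-voom and 1 to 4 with 1 library left out. The replicate numbers gave no sign of pairing: the correlation of deviations from the group means was -0.12, 0.09 and -0.09 for numbers 1 to 3. WT replicate 1 and Hnrnpl-null replicate 3 stand apart by their Rn45s share, so these values cannot exclude a pairing. With the replicate number as a block, 444 genes, 43 list genes and 1 neighbour were called, and the Ddx21 call was lost (edgeR adjusted p = 0.063). Depth limits the WT values: 2 members have no WT counts and 2 others have 2 read pairs.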
